A study of Mus musculus with 30 samples.

Results

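Voltage-gated potassium (Kv) channel genes were examined in ribosome-associated RNA from the 2 classes of medium spiny neuron of the female mouse nucleus accumbens. The members were the protein-coding genes whose symbols begin with Kcna, Kcnb, Kcnc, Kcnd, Kcnf, Kcng, Kcnh, Kcnq, Kcns or Kcnv followed by a digit, which gave 40 of the 55335 genes in the count table. Of these, 37 passed the filter on low counts and were tested. The other members were Kcna7 with 2 reads over all 30 libraries, Kcna10 with 56 and Kcnv2 with 131. The list was chosen by gene symbol, not by any measured value.

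The nucleus accumbens is a ventral striatal region whose output cells, the medium spiny neurons, fall into a D1 class (marked by Drd1) and a D2 class (marked by Drd2 and Adora2a). The libraries came from female D1-Cre-RT mice (D1 class) and A2A-Cre-RT mice (labelled A2A-MSN, here D2 class), in which a Cre driver directs an epitope-tagged ribosomal protein to the cells that carry it. Tagged polyribosomes were pulled down with an anti-HA antibody, so every library in every group, controls included, comes from tagged mice and reports ribosome-associated rather than total RNA. Within each class there were 3 groups of 5 libraries: Control, and mice exposed to chronic witness defeat stress (CWDS) that were graded Resilient or Susceptible by their social interaction scores. Tissue was taken 24 h after the interaction test, and each library pools 4 mice of similar score, so differences between single animals are not seen and a library is the unit of replication. The labels used here state no age for the mice.

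Kv channels are tetramers that open on depolarization and let potassium leave the cell. Kv1 (Kcna) and Kv4 (Kcnd) channels open near rest and set the delay to the first spike, with Kv4 carrying much of the transient A-type current in dendrites. Kv2 (Kcnb) carries slow delayed rectifier current, Kv3 (Kcnc) opens and closes fast at high voltage and is known from fast-spiking interneurons, Kv7 (Kcnq) carries the M-current that neuromodulators close, and Kcnh holds the EAG, ERG and ELK channels. The Kcnf, Kcng, Kcns and Kcnv proteins form no channel alone and modify Kv2 channels.

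All of these proteins line their pore with the same short signature, and the codons for it show what the members share beyond their names. An in-frame match to the signature was found in the coding sequence of all 40 members, from 8 Kcna, 2 Kcnb, 4 Kcnc, 3 Kcnd, 5 Kcnq, 8 Kcnh and 10 modifier genes. The windows below are 30 bases of the sense strand, taken from the GENCODE M21 transcripts, with the codons for glycine, an aromatic residue and glycine in capitals. They are Kcnc1, Kcnc2 and Kcnc4, Kv3 genes on which the difference between classes turns, and genes of other families for comparison.

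Kcnc1: accatgacgacactgGGCTATGGAgacatg
Kcnc2: accatgactaccttaGGTTACGGGgatatg
Kcnc4: accatgacaacgcttGGCTATGGGgacatg
Kcna2: tccatgacaactgtaGGCTATGGAgacatg
Kcnd2: accatgacaacactgGGGTATGGCgacatg
Kcns3: agtatgaccacagtgGGCTATGGAgacacc
Kcnh1: agtctcaccagtgtgGGCTTTGGTaacatt

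On GRCm38 the windows lie in coding exons at chr7:46427964-46427993 for Kcnc1, chr10:112456220-112456249 for Kcnc2 and chr3:107447793-107447822 for Kcnc4. The middle codon was a tyrosine codon in 32 members and a phenylalanine codon in 8. All 8 of the latter were Kcnh genes, as in Kcnh1 above (chr1:192337745-192337774). Kcnc1, Kcnc2 and Kcnc4 spell the signature with different codons. The Kcnd2 window is split by an intron, so its bases are not contiguous in the genome.

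The series holds 30 libraries with 28996168 to 65882152 reads assigned to genes. Class markers followed the labels in most libraries. The summed level of 7 D1 class markers was 1736 to 2609 CPM (reads scaled to a common library size with edgeR's TMM factors) in D1 libraries and 280.7 to 1858 in D2 libraries. D2 Resilient replicate 5 stood at 1858, inside the D1 range, with a D2 marker sum of 4867 against 9792 to 12799 in all other D2 libraries but D2 Control replicate 5, which had 7287 and a D1 marker sum of 1236. These are called the libraries labelled D2 Control 5 and D2 Resilient 5, and results between classes are given with and without them where they move. D2 Susceptible replicates 1 and 2 held the fewest genes with a read (15822 and 16525, against 19440 to 22375 elsewhere), and D1 Susceptible replicate 1 had 41.2% of its reads outside annotated features. TMM scaling raised the CPM of D1 Susceptible replicate 1 above what its assigned reads alone would give. Its 137 CPM of Kcnh1 came from 1351 reads, the fewest of that group, where the most was 7985.

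Levels per kilobase of exon were compared first, since they rank the channel transcripts in these pull-downs. Kcnd2, which encodes Kv4.2, the main A-type subunit, was the highest at 56.3 ± 8.64 CPM per kilobase (SD, n = 30) and exceeded the next gene in 30 of 30 libraries. Next came Kcnf1, a silent Kv2 modifier, at 35.3 ± 5.64, which was above the third gene in 26 libraries. Kcna4 at 26.9 ± 3.05 and Kcna2 at 25.9 ± 7.21, Kv1 subunits of axons and terminals, changed places from library to library, with Kcna4 above Kcna2 in 20 of 30.

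Kcnh3 (an ELK channel) led the Kcnh genes at 20.0 ± 3.17 CPM per kilobase, and Kcnc1 led the Kv3 genes at 10.2 ± 2.56. In all, 16 members lay above 10 CPM per kilobase, 12 between 1 and 10, and 12 below 1. With the longest transcript as the length in place of all exons together, Kcnd2 stayed first, but the order below it changed. Kcnf1 then ranked 3rd, and Kcnh3 came to 31.2, above Kcna4 at 27.2 and Kcna2 at 26.6.

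**Figure D1:**
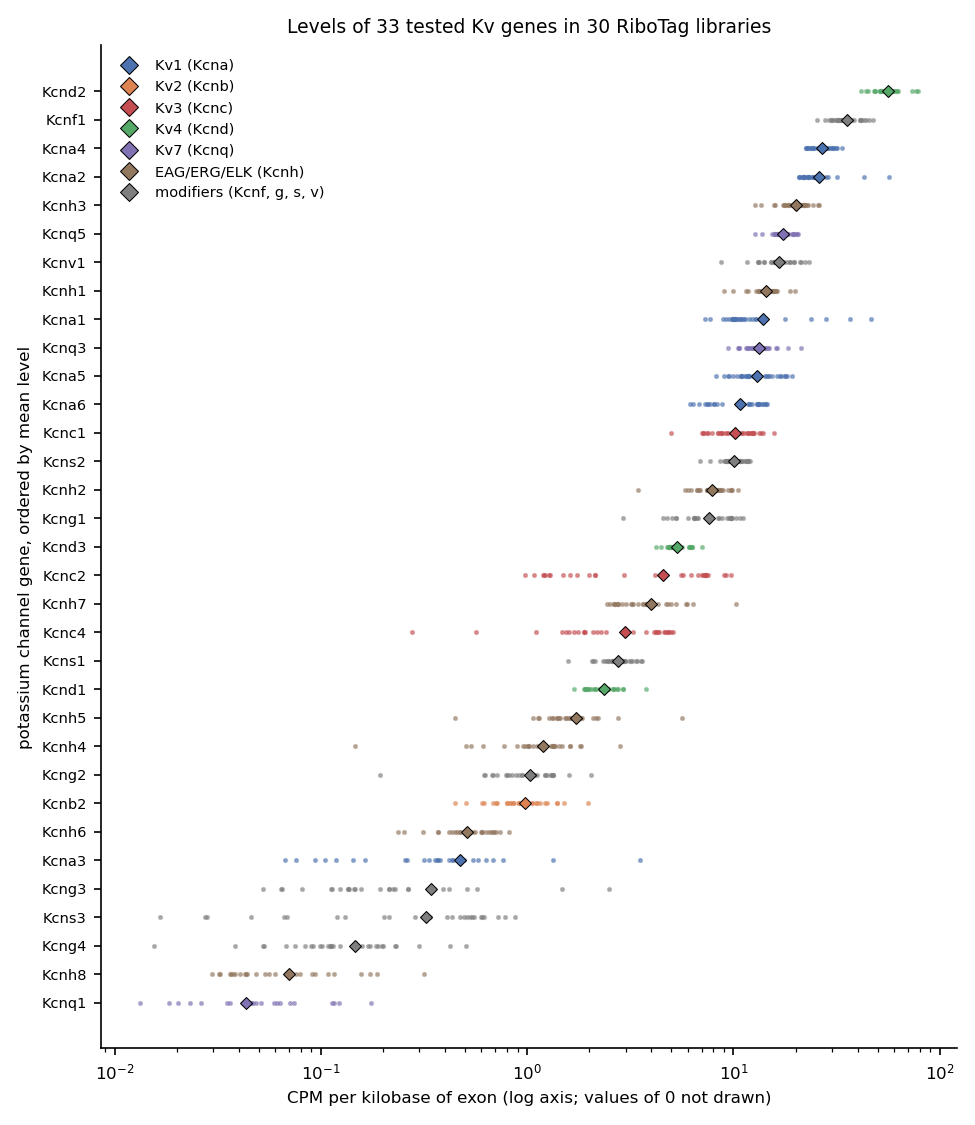
Levels of 33 of the tested members in CPM per kilobase of exon on a log axis, 1 dot per library (30) and a diamond at the mean, coloured by family. Kcnd2 leads at 56.3 and Kcnf1 follows at 35.3.

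By family, the 8 Kv1 genes made up 24.4 ± 3.69% of the summed per-kilobase level of all members (SD, n = 30). The 10 modifiers made up 19.9%, Kv4 17.2%, Kv7 14.5%, Kcnh 13.4% and Kv3 6.38%. Kv3 was 8.22 ± 0.42% in D1 Control and 5.26 ± 0.66% in D2 Control (n = 5 each), and those ranges did not overlap (7.60 to 8.63% and 4.503 to 6.236%). The modifiers made up 22.4 ± 1.03% in D1 Control and 18.9 ± 0.89% in D2 Control, again with no overlap. Kv1 ran the other way, at 21.6 ± 0.68% and 25.4 ± 2.02%. These shares are descriptions and were not tested.

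The first question of the design is how the D1 and D2 classes differ. The Kv3 genes Kcnc1, Kcnc2 and Kcnc4 were higher in D1 libraries, as were Kcnb2 and 5 modifiers, while Kcna4 and Kcna5 were lower. Averaged over the 3 stress states, 18 of the 37 tested members passed the edgeR quasi-likelihood test at a Benjamini-Hochberg adjusted p of 0.05 over all 19368 genes, where 29.3% of all genes did. Of those, 16 were higher in D1 and 2 were lower, against 13.8% and 15.5% of all genes. The median log2 difference of the members was 0.21, beside 0.01 over all genes tested.

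The D1 and D2 libraries of each stress state are separate sets. In Control, 4 of 37 members passed (10.8%, against 8.30% of all genes), a share near that of all genes, and all 4 were higher in D1 (3.51% of all genes). In Resilient 8 passed (6.65% of all genes), 7 higher in D1 (2.75%) and 1 lower (3.90%). In Susceptible 16 passed (23.9% of all genes), 14 higher (10.5%) and 2 lower (13.4%). The 4 members that were called higher in D1 in all 3 states were Kcnc1, Kcnc2, Kcna6 and Kcnf1, while 1.67% of all genes did the same. None was called lower in D1 in all 3 states by edgeR, where 2.34% of all genes were. Log2 differences lay below 0 in each state for 4 of 37 members (Kcna1, Kcna4, Kcna5 and Kcnq1), or 10.8%, beside 26.1% of all genes. By sign alone, 22 of 37 members lay above 0 in all 3 states, beside 26.4% of all genes. D1 libraries lay above all D2 libraries for 8 members in Control (5.62% of all genes), 8 in Resilient (4.69%) and 11 in Susceptible (4.80%). They lay below all D2 libraries for 0 members in Control (6.05% of all genes), 2 in Resilient (Kcna4 and Kcna5; 5.01%) and 0 in Susceptible (4.12%). Over all 15 libraries of each class, Kcnc1 and Kcnc2 were the 2 members without overlap (0.516% of all genes).

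**Figure D2:**
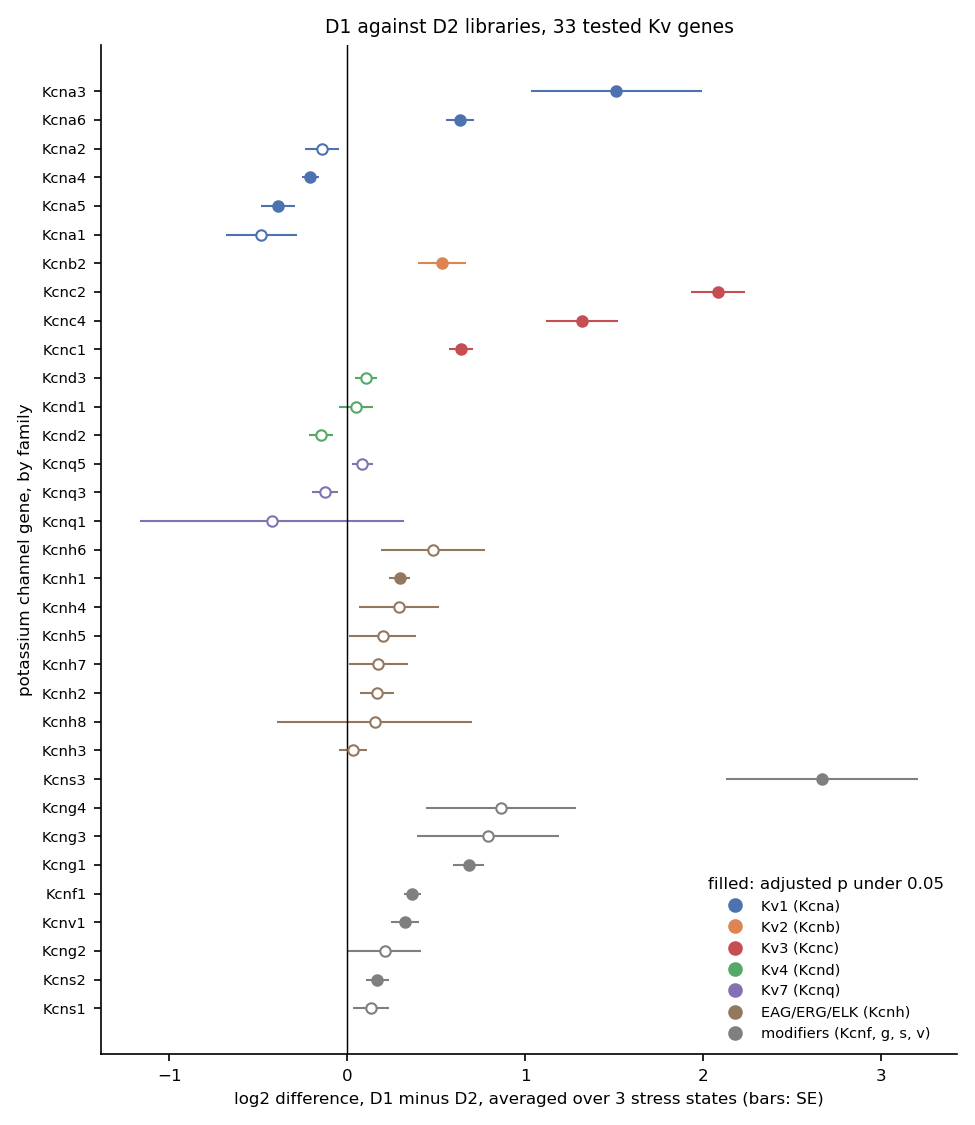
Log2 difference of D1 minus D2 libraries, averaged over the 3 stress states, for 33 of the tested members by family; bars are standard errors and filled points have an adjusted p under 0.05. The Kv3 points lie right of 0, with Kcnc1 at 0.64, Kcnc4 at 1.32 and Kcnc2 at 2.08, and 14 points are filled.

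Kcnc2, which encodes Kv3.2, had the clearest difference of the family. In D1 Control libraries it stood at 52.2, 50.1, 69.5, 50.8 and 64.5 CPM, and in D2 Control at 9.10, 8.58, 15.1, 11.5 and 29.7 CPM. The D1 libraries were all above the D2 libraries, and the highest D2 value came from the library labelled D2 Control 5. The log2 difference was 1.95 ± 0.26 (SE, adjusted p = 8.97e-06 by edgeR), a 3.87-fold difference.

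In the stressed groups Kcnc2 read 52.7, 51.7, 53.6, 65.3 and 52.6 CPM in D1 Resilient and 10.6, 8.54, 12.4, 15.2 and 21.2 in D2 Resilient. In D1 Susceptible it read 40.8, 44.6, 52.1, 39.7 and 48.1, and in D2 Susceptible 9.17, 14.3, 6.93, 8.70 and 7.68. The D1 libraries were again above every D2 library, and in each class the Susceptible mean was the lowest of the 3. The averaged log2 difference was 2.08 ± 0.15 (adjusted p = 1.52e-11 by edgeR), with all 15 D1 libraries above the D2 mean. Without the libraries labelled D2 Control 5 and D2 Resilient 5 it was 2.30 ± 0.11.

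Kcnc1, which encodes Kv3.1, was the Kv3 gene with the highest level per kilobase and differed less in ratio. It stood at 118, 117, 115, 112 and 110 CPM in D1 Control and at 87.6, 74.6, 88.7, 66.3 and 86.2 in D2 Control. Over all states the D1 libraries ran from 103 to 149 CPM and the D2 libraries from 47.0 to 88.7, with no overlap. The log2 difference was 0.51 ± 0.12 in Control, 0.68 ± 0.12 in Resilient and 0.74 ± 0.12 in Susceptible (adjusted p = 0.00422, 0.000141 and 4.01e-05 by edgeR).

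Kcnc4, which encodes the A-type Kv3.4, was at 15.1, 17.7, 17.0, 15.7 and 15.4 CPM in D1 Control and 7.61, 8.40, 6.22, 5.63 and 11.97 in D2 Control. Those groups did not overlap, yet the Control difference of 1.02 ± 0.35 had an adjusted p of 0.0694 by edgeR. It was 1.36 ± 0.35 in Resilient (adjusted p = 0.0135) and 1.58 ± 0.36 in Susceptible (adjusted p = 0.00213). Without the libraries labelled D2 Control 5 and D2 Resilient 5 the Control difference was 1.22 ± 0.38 with an adjusted p of 0.0412. Without D2 Susceptible replicates 1 and 2, which are in neither Control group, it was 1.03 ± 0.28 with an adjusted p of 0.014.

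Some members overlap a gene on the opposite strand somewhere in their whole span, introns included. No strand setting of the counting is stated, so reads from any exon sequence shared by such pairs cannot be told apart. Whether exons are shared was not examined. Among the members described, those with an opposite-strand overlap are Kcna3, Kcna6, Kcnb2, Kcnh1, Kcnh3, Kcnh7, Kcnq1, Kcnq3 and Kcns3. Kcnb2, Kcnd2, Kcnh7 and Kcnq1 overlap genes on their own strand.

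**Figure D3:**
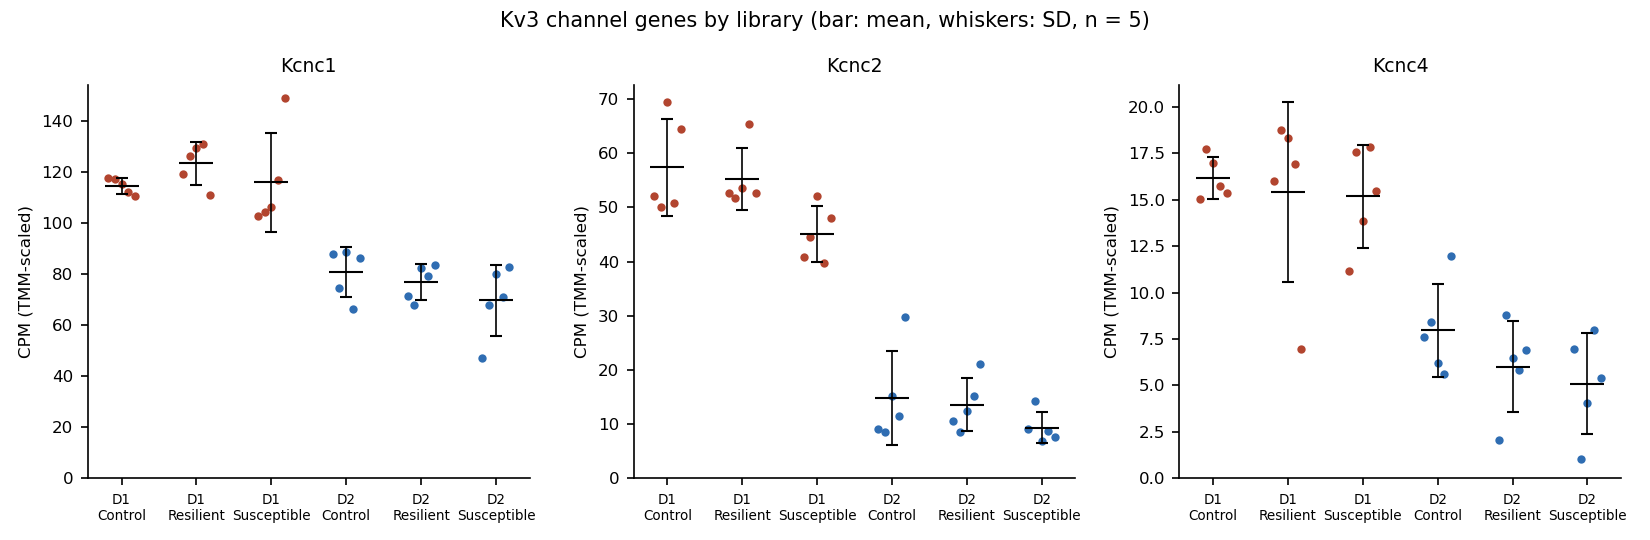
CPM of Kcnc1, Kcnc2 and Kcnc4 in each of the 30 libraries, by class and stress outcome; each dot is a library, the bar the mean and the whiskers the SD (n = 5). D1 libraries of Kcnc2 lie between 39.7 and 69.5 and D2 libraries between 6.93 and 29.7, and those of Kcnc1 between 103 and 149 and between 47.0 and 88.7.

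Kcnc1 and Kcnc2 were the members whose classes did not overlap, and their upstream sequences are shown because they differ in base composition. The runs below are the 250 bases before the RefSeq start (GRCm38.p6, sense strand), at chr7:46396218-46396467 for Kcnc1 and chr10:112270871-112271120 for Kcnc2, both on the plus strand, with GGGCGG or its reverse complement in capitals.

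Kcnc1: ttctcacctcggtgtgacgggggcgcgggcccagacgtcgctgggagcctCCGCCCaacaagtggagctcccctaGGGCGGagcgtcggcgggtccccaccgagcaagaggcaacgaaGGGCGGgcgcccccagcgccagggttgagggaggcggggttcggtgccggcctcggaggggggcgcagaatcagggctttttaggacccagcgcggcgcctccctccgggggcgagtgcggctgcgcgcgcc
Kcnc2: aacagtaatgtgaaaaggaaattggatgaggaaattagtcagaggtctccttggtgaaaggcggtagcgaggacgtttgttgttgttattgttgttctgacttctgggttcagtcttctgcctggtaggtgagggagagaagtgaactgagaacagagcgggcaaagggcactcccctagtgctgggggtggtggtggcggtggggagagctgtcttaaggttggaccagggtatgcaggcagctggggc

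The Kcnc1 run holds 3 such boxes, 30 CG steps and 74.4% G or C, and the Kcnc2 run holds none, with 5 CG steps and 52.8% G or C. Over 32851 such windows the median was 6 CG steps and 52.4% G or C, and 32.7% held the GGGCGG box on either strand. RefSeq windows were matched by symbol for 25 of the 40 members, and 17 of their 30 windows, from 16 members, had at least 1 box. Neither TGACGTCA (1.55% of all windows) nor TATAAA (12.4%), read on both strands, occurred in the windows of any matched member. These are matches of letters only.

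Of the modifiers, 5 of the 9 tested were called higher and none lower over the 3 states (percentages of all genes as above), and all 9 had log2 values above 0. Kcnf1 stood at 168, 205, 218, 197 and 228 CPM in D1 Control and at 159, 154, 156, 144 and 144 in D2 Control, without overlap. Its difference was 0.43 ± 0.08 in Control, 0.29 ± 0.08 in Resilient and 0.38 ± 0.08 in Susceptible (adjusted p = 0.000782, 0.028 and 0.00141 by edgeR). The Resilient call was lost without D1 Resilient replicate 2 or 4 or D2 Resilient replicate 1 or 4 (adjusted p up to 0.0735).

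Kcng1, a further Kv2 modifier, ran from 33.4 to 50.3 CPM (median 43.1) in D1 libraries and from 13.2 to 33.7 (median 29.0) in D2 libraries. The ranges only just met, and the averaged difference was 0.68 ± 0.09 (adjusted p = 3e-07 by edgeR). In Control its difference of 0.46 ± 0.15 missed the threshold (adjusted p = 0.0526 by edgeR), and without the libraries labelled D2 Control 5 and D2 Resilient 5 it was 0.51 ± 0.16 (adjusted p = 0.0476). Without D2 Susceptible replicates 1 and 2 it was 0.48 ± 0.12 (adjusted p = 0.00574).

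Kcns3 encodes Kv9.3 and is known from parvalbumin interneurons. It was scarce, at 0.91 to 2.76 CPM (median 1.66) in D1 libraries and 0 to 1.75 (median 0.15) in D2 libraries. Among D2 libraries the highest, 1.75 CPM, was the library labelled D2 Control 5, and the other D2 Control libraries were at 0.09, 0.22, 0.15 and 0 CPM. The averaged difference was 2.67 ± 0.54 (adjusted p = 0.000315 by edgeR), and without the libraries labelled D2 Control 5 and D2 Resilient 5 it was 3.41 ± 0.53. In Control alone it was 2.14 ± 0.91 (adjusted p = 0.164) with them and 4.10 ± 0.97 (adjusted p = 0.00587) without them.

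Kcnv1 (Kv8.1, 84.6 ± 11.95 CPM in D1 and 67.6 ± 11.75 in D2, n = 15 each) and Kcns2 (Kv9.2, 59.7 ± 5.45 and 53.0 ± 6.90) had averaged differences of 0.33 ± 0.08 and 0.17 ± 0.06 (adjusted p = 0.00201 and 0.0408 by edgeR). The Kcns2 call was lost without D1 Susceptible replicate 1 or D2 Resilient replicate 1 (adjusted p up to 0.0691) and with DESeq2 size factors (adjusted p = 0.0525). The D1 and D2 ranges of both genes overlapped widely. Kcnb2, a Kv2 subunit of the kind that modifiers join, was higher in D1 by 0.53 ± 0.14 (adjusted p = 0.00317 by edgeR). It ran from 13.01 to 30.03 CPM in D1 and from 6.78 to 18.9 in D2.

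The Kv1 genes were split. Kcna6, which encodes Kv1.6, was higher in D1 in every state, at 84.4, 77.1, 86.1, 77.5 and 85.8 CPM in D1 Control against 47.8, 44.1, 43.4, 65.9 and 69.6 in D2 Control. Its differences were 0.60 ± 0.14 in Control, 0.77 ± 0.14 in Resilient and 0.54 ± 0.14 in Susceptible (adjusted p = 0.00376, 0.000252 and 0.00495 by edgeR). Fitted on the compared groups alone, the Susceptible difference of 0.54 had an adjusted p of 0.0872.

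Kcna4 (Kv1.4, an A-type subunit) was lower in D1, at 109 to 152 CPM (median 118) against 114 to 162 (median 138) in D2, an averaged difference of -0.21 ± 0.05 (adjusted p = 0.000984 by edgeR). Kcna5 (Kv1.5) was at 25.8 to 42.6 CPM in D1 and 23.6 to 54.8 in D2, a difference of -0.39 ± 0.10 (adjusted p = 0.00238). For both genes the ranges overlapped. In Control, Kcna5 was not called with all libraries. Without the libraries labelled D2 Control 5 and D2 Resilient 5 its Control difference was -0.57 ± 0.17 (adjusted p = 0.0327 by edgeR). Kcna3 (Kv1.3) was near the floor: its medians were 0.94 CPM in D1 and 0.31 in D2, its averaged difference of 1.51 ± 0.48 was called (adjusted p = 0.0171 by edgeR), and the call was lost without D1 Susceptible replicate 1, which held 6.70 CPM.

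Among Kv7 genes Kcnq3 was at 188 ± 26.9 CPM in D1 and 205 ± 40.65 in D2 and was not called (-0.12 ± 0.07, adjusted p = 0.216 by edgeR). Of 8 Kcnh genes only Kcnh1 (EAG1) was called by edgeR, at 116 ± 11.5 against 94.6 ± 12.04 CPM, a difference of 0.30 ± 0.06 (adjusted p = 0.000285); all 8 lay above 0. No Kv4 gene was called in the average by edgeR (1 of 3 had an unadjusted p under 0.05, and 39.4% of all genes). Kcnd2, the highest of all members per kilobase, was at 274 ± 35.8 CPM in D1 and 305 ± 48.1 in D2.

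In Susceptible libraries alone Kcna2 and Kcnd2 were also called, both lower in D1, with differences of -0.59 ± 0.17 and -0.34 ± 0.12 (adjusted p = 0.0107 and 0.0376 by edgeR). Without D2 Susceptible replicates 1 and 2 the Kcna2 difference was -0.07 and that of Kcnd2 -0.15, and neither was called. The Kcnd2 call was also lost in 21 of the 30 fits that left out a single library. Kcng3 (2.23 ± 0.72, adjusted p = 0.023) was called there too, and not without D1 Susceptible replicate 1 (8.32 CPM), D1 Susceptible replicate 5 (4.97) or D2 Susceptible replicate 4 (0.21). Without D2 Susceptible replicates 1 and 2, 11 members rather than 16 were called in Susceptible, 10 rather than 4 in Control and 22 rather than 18 in the average. The share of all genes called in that fit is not given here, so these changes are not read as particular to the members.

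As lists, interneuron and excitatory neuron markers differed between the classes in the same direction as Kv3, and the other lists below ran the other way. The summed level of 10 interneuron markers was 404 ± 59.6 CPM in D1 libraries (318 to 511) and 135 ± 58.2 in D2 libraries (74.3 to 305), without overlap; 7 of the 10 were called higher in D1 and 1, Th, lower. Pvalb averaged 16.5 ± 5.44 and 2.97 ± 2.83 CPM (log2 difference 2.54 ± 0.28), and Sst 252 ± 44.5 and 70.6 ± 39.9 (1.87 ± 0.16). All 6 cortical and excitatory markers were called higher in D1, with sums of 743 ± 107 and 337 ± 104 CPM (485 to 933 and 143 to 530). Endothelial and mural markers ran the other way, at 23.0 ± 10.6 and 261 ± 64.7 CPM, as did oligodendrocyte markers, at 557 ± 139 and 970 ± 368. Astrocyte markers (155 and 251 CPM), oligodendrocyte precursor markers (6.37 and 16.8) and microglial markers (14.6 and 25.6) were also lower in D1, with 5 of 6, 3 of 3 and 4 of 6 called. Of 7 markers shared by both medium spiny neuron classes, 5 were called lower in D1 (sums of 6028 and 7770 CPM). No marker of these lists was at 0 in a whole class.

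Among D2 libraries the highest interneuron sums, 305 and 221 CPM, were in the libraries labelled D2 Control 5 and D2 Resilient 5, which also had the highest Kcnc2 (29.7 and 21.2 CPM). For Kcnc1 those libraries were at 86.2 and 83.6 CPM, inside the range of the other D2 libraries. The part of other cells in the class differences was not tested. In RNA from a whole pull-down, fewer cells of a type and less RNA per cell cannot be told apart.

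**Figure D4:**
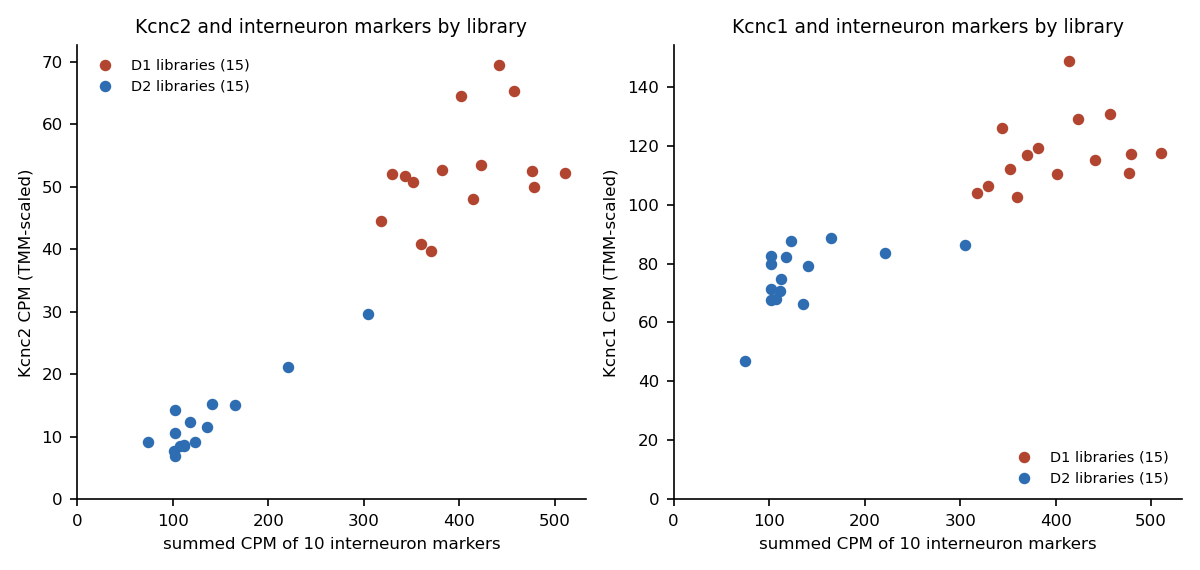
Kcnc2 and Kcnc1 CPM of each library against the summed CPM of 10 interneuron markers, 15 D1 and 15 D2 libraries. D1 libraries lie at 318 to 511 and D2 libraries at 74.3 to 305 on the marker axis, and the D2 libraries with the highest marker sums also have the highest Kcnc2.

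Genes that work with Kv channels were read from a list of 15 auxiliary subunits, of which 13 were tested, and 11 clustering and scaffold partners. Averaged over the states, 5 of the 13 auxiliary subunits were called higher in D1 and 2 lower, against 13.8% and 15.5% of all genes. The lower count was near the share of all genes, and the list median was 0.01. Kcnab3, a beta subunit of Kv1 channels, had the largest difference above 0 (27.5 ± 5.18 against 17.5 ± 3.28 CPM, difference 0.65 ± 0.09, adjusted p = 8.64e-07 by edgeR), followed by Kcnip3 (0.36), Kcnab2 (0.34), Kcnip1 (0.28) and the Kv2 partner Amigo1 (0.18). Lower were Kcne4 (0.16 ± 0.20 against 1.39 ± 0.79 CPM) and Kcne1l (0.34 ± 0.30 against 1.13 ± 0.78), both near the floor.

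Of the 11 clustering partners, Cntnap1 (0.22), Adam22 (0.23) and Adam23 (0.12) were called higher in D1 and Cntnap2 (-0.21) and Ank3 (-0.41) lower. The same shares of all genes apply (13.8% and 15.5%), and the lower count was near its share. Cntnap2 and Adam22 both belong to the complex that gathers Kv1 channels along axons, and they lay on opposite sides. Kcnip2 and Dpp10, which join Kv4 channels, had differences of -0.10 and -0.07 and were not called, and neither was Kcnip4 (0.01) or Dpp6 (0.10).

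The second question is whether stress outcome altered these genes within a class. No member was called by edgeR in any of the 6 stress comparisons, nor in the 3 tests of whether the stress difference itself varied between classes. DESeq2 called 3 in D2 Susceptible against Resilient and none elsewhere in these comparisons, and its share of all genes is not given here. Over all genes, edgeR called 0% in the 3 D1 comparisons and in D2 Resilient against Control, 0.00516% in D2 Susceptible against Control and 0.0516% in D2 Susceptible against Resilient, so few genes of any kind passed.

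In the D1 class, 2 members had an unadjusted p under 0.05 in Susceptible against Control (2.40% of all genes), 0 in Resilient against Control (2.60%) and 3 in Susceptible against Resilient (3.49%). The smallest p-values in Susceptible against Control were those of Kcng3 (1.84 ± 0.70), Kcnf1 (-0.18 ± 0.08) and Kcna3 (1.62 ± 0.83), each with an adjusted p of 1 by edgeR. Kcnf1 read 159, 200, 199, 175 and 168 CPM in D1 Susceptible, inside or just under the D1 Control range. Kcng3, Kcna3 and Kcnh5 (EAG2) were highest in D1 Susceptible replicate 1, at 8.32, 6.70 and 22.7 CPM, and next in replicate 5, at 4.97, 2.55 and 11.2 CPM. As given above, TMM scaling raised the CPM of that replicate 1. The Kcnh5 difference from Resilient was 0.73 ± 0.33 (adjusted p = 1).

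In D1 Resilient against Control the members with the smallest p were Kcnv1 (-0.19 ± 0.14), Kcnf1 (-0.11 ± 0.08) and Kcns1 (0.21 ± 0.17). Susceptible against Resilient added Kcna4 (0.17 ± 0.08). For each of these genes the adjusted p by edgeR was 1. Kcng3 led that comparison, at 2.11 ± 0.71 (adjusted p = 0.856). In the D1 class Kcnc1, Kcnc2 and Kcnc4 gave log2 differences from -0.35 to 0.02 between Susceptible and Control and from -0.07 to 0.11 between Resilient and Control.

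In the D2 class, 12 members had an unadjusted p under 0.05 in Susceptible against Control (15.7% of all genes), 1 in Resilient against Control (4.20%) and 7 in Susceptible against Resilient (19.1%), so the last count is a share near that of all genes. Without D2 Susceptible replicates 1 and 2 the 12 became 4 and the 7 became 3. The shares of all genes in that fit are not given here. The Susceptible against Resilient comparison was led by Kcna2, Kcna1 and Kcnq3.

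Kcna2, which encodes Kv1.2, read 673, 510, 273, 316 and 290 CPM in D2 Susceptible, 276, 262, 260, 379 and 300 in D2 Control and 316, 258, 262, 258 and 248 in D2 Resilient. Replicates 1 and 2 of the Susceptible group stood above every other library, and the other 3 lay among the Control values. The difference was 0.62 ± 0.17 from Resilient (adjusted p = 0.0684 by edgeR, 0.0151 by DESeq2) and 0.48 ± 0.17 from Control (adjusted p = 0.189 by edgeR). Without replicates 1 and 2 it was 0.12 from Resilient and -0.02 from Control.

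Kcna1, which encodes Kv1.1, followed the same libraries, at 221, 176, 54.2, 84.8 and 56.9 CPM in D2 Susceptible and 52.3, 54.0, 58.7, 47.7 and 47.3 in D2 Resilient. Its difference from Resilient was 1.19 ± 0.35 (adjusted p = 0.0837 by edgeR, 0.026 by DESeq2), and 0.33 ± 0.31 without replicates 1 and 2. Kcnq3, an M-current subunit, read 272, 312, 201, 206 and 212 CPM in D2 Susceptible and 209, 154, 156, 198 and 180 in D2 Resilient, a difference of 0.42 ± 0.13 (adjusted p = 0.084 by edgeR, 0.0346 by DESeq2) and of 0.20 ± 0.12 without those libraries. Kcnh7, an ERG channel named here after its values were seen, was likewise highest in replicates 1 and 2 (156 and 90.2 CPM, the others 41.7 to 58.5).

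**Figure D5:**
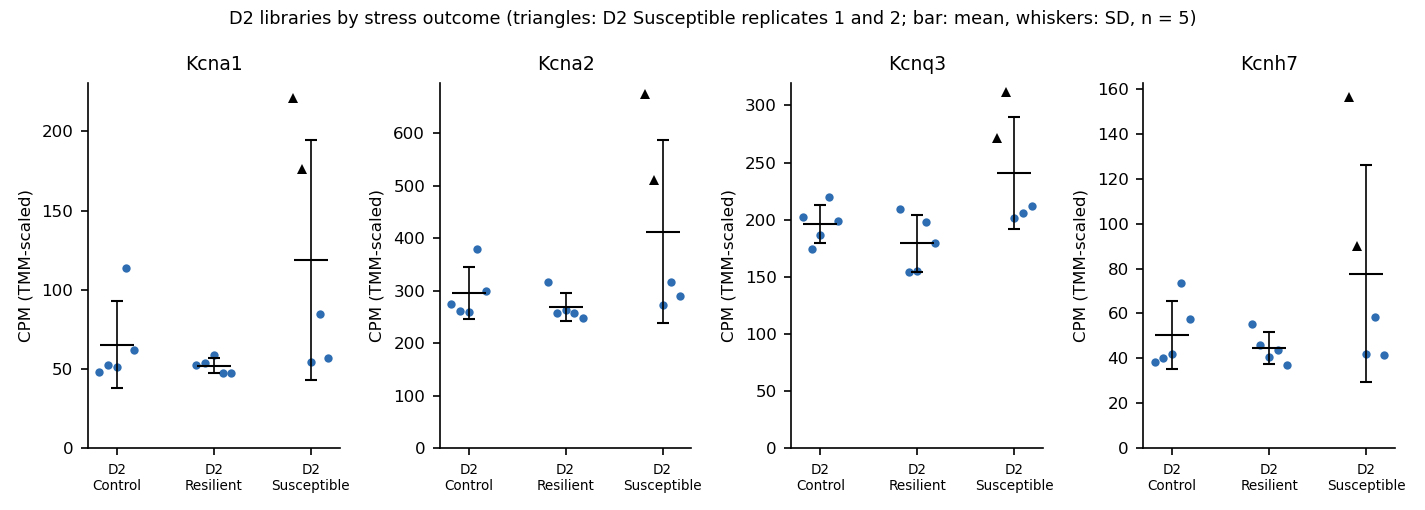
CPM of Kcna1, Kcna2, Kcnq3 and Kcnh7 in the 15 D2 libraries by stress outcome; dots and triangles are libraries, triangles mark D2 Susceptible replicates 1 and 2, the bar is the mean and the whiskers the SD (n = 5). In each panel both triangles are the highest points, with Kcna2 at 673 and 510 against 273 to 316 for the other Susceptible libraries.

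D2 Susceptible replicates 1 and 2 also had the highest oligodendrocyte marker sums of all libraries, 1894 and 1454 CPM against 817 to 1051 in the other D2 Susceptible libraries, beside the fewest genes detected. The library with the next highest sum, D2 Control replicate 4 at 1363 CPM, had the highest Kcna1 and Kcna2 of its group (114 and 379 CPM). The part of these in the stress differences was not tested.

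Kcnd2 was also among the smallest p-values of the D2 class in Susceptible against Control (0.31 ± 0.12, adjusted p = 0.216 by edgeR), as were Kcna6 (-0.25 ± 0.14) and Kcnh3 (-0.24 ± 0.14) in Resilient against Control, each with an adjusted p of 1. Kcnc1, Kcnc2 and Kcnc4 lay below 0 in both comparisons with D2 Control, at -0.21, -0.67 and -0.65 in Susceptible and -0.07, -0.13 and -0.41 in Resilient, and none was called. The Kcnc2 difference of D2 Susceptible from Control was -0.94 ± 0.31 without D2 Susceptible replicates 1 and 2 (adjusted p = 0.671 by edgeR) and -0.25 ± 0.21 without D2 Control replicate 5 alone (adjusted p = 0.592). In the latter fit Kcnc1 and Kcnc4 stood at -0.19 ± 0.13 and -0.46 ± 0.36. The Resilient differences in that fit were -0.05 ± 0.13 for Kcnc1, 0.29 ± 0.21 for Kcnc2 and -0.21 ± 0.36 for Kcnc4. Kcnc2 thus changed sign in Resilient with 1 library left out. The interneuron marker sum was also lower in D2 Susceptible, at 98.3 ± 14.0 CPM, than in D2 Control, at 168 ± 78.9 (n = 5 each), and its part was not tested. D2 Control replicate 5 alone stood at 305 CPM, and the other 4 D2 Control libraries averaged 134 ± 22.95 CPM (112 to 165).

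Of the channel partners, none was called in a stress comparison by edgeR. The smallest p-values were those of Ank3 and Kcnip1 in D2 Susceptible against Resilient, with differences of 1.05 (adjusted p = 0.0653) and -0.58 (adjusted p = 0.078). The direct tests of whether stress acted differently in the classes had an unadjusted p under 0.05 for 4 members in Susceptible against Control (7.79% of all genes), 1 in Resilient against Control (4.99%) and 5 in Susceptible against Resilient (12.4%). Kcna2 was first in the last of these, at -0.76 ± 0.23 (adjusted p = 0.247 by edgeR).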

How the data were processed

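Members, lists and tests were chosen with earlier results of these data known. The authors deposited raw read counts for each gene, as 1 file per library and a table of all 30 with the same values. HISAT2, HTSeq and the builds GRCm38 and mm10 are named in the submitters' processing notes, per the labels, with no version; no annotation release or strand setting is stated. Libraries were made from 10 ng of RNA with an integrity number above 8 using a SMART-Seq kit, per the labels' protocols, and reads are not independent molecules.

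Counts were fitted with edgeR 4.0.16 (R 4.3.3): TMM scaling, filterByExpr (minimum count 10, minimum total 15; 19368 of 55335 genes kept), 1 model of 6 groups, robust quasi-likelihood tests for 13 comparisons, and Benjamini-Hochberg adjustment over all genes tested at 0.05. The biological coefficient of variation was 41.4%. The procedure was tested on simulated counts. CPM are counts scaled to a common TMM library size; 3 counts were taken as the floor. Lengths and positions come from GENCODE M21 (GRCm38) and upstream sequences from RefSeq. Names given with statistics were members called in any comparison, the 3 smallest p-values of each stress comparison and the leading gene of each family per kilobase, 26 in all, of which 21 were called. Kcnh7 was added after its values were seen. The results of some members are not reported here, though counts over members include them. Alternatives were DESeq2 1.42.0, its size factors within edgeR, no filter, only the groups compared, a replicate block, limma 3.58.1 voom with quality weights, and fits without 1, 2 or 4 libraries. The fit without the libraries labelled D2 Control 5 and D2 Resilient 5 was added after seeing the data. The 5 libraries of a group are biological replicates per the labels, each pooled from 4 mice. Protein sequences were not used here.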

Additional observations from a re-analysis of the deposited data

Results flagged for a closer look

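Among 132 checks (22 named members in 6 groups of 5 libraries), 17 flagged a single library as far from the rest of its group. The rule was Dixon's gap criterion at the 95% level, where chance gives about 1 in 20 checks. A library can be flagged for more than 1 gene, as in the 17 flags described here. D2 Resilient replicate 1 accounts for 5 of the 17 flags: it was the highest of its group for Kcna2 (316.2 CPM), Kcna4 (161.7) and Kcnd2 (378.5) and the lowest for Kcng1 (21.53) and Kcnh1 (84.62). The library labelled D2 Control 5 was highest for Kcng3 (1.72 CPM), Kcns2 (59.84) and Kcns3 (1.749). Because the rule looks for 1 library at a time, 2 high libraries in a group can go unflagged. D2 Susceptible replicates 1 and 2 were such a pair for Kcna2 (673.3 and 510.3 CPM).

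D2 Control replicate 4 was highest for Kcna1 (113.5 CPM) and lowest for Kcnv1 (53.44), and D2 Control replicate 1 was highest for Kcna3 (0.8712). D1 Susceptible replicate 1 was highest for Kcna1 (134.4 CPM). In D1 Resilient, replicate 4 was high for Kcnc2 (65.32 CPM), replicate 1 high for Kcnv1 (89.84) and replicate 5 low for Kcnc4 (6.945, the others 16.01 to 18.76). D1 Control replicate 2 was low for Kcnq3 (156.5 CPM), and D2 Susceptible replicate 4 was high for Kcns3 (0.4135). No difference of a stress effect between the classes passed edgeR's test for any member.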

How the results depend on the processing

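The number of members called between the classes depended on the processing most in Control, where 4 as reported became 8 with DESeq2, 17 with voom quality weights, 9 with only the compared groups, 10 without D2 Susceptible replicates 1 and 2, 10 without those and 2 further libraries, and 8 without the libraries labelled D2 Control 5 and D2 Resilient 5. In Resilient 8 became 14 with voom, and in Susceptible 16 became 7 with only the compared groups. Shares of all genes under the alternatives are not given here, so such changes are not read as particular to the members. Leaving out each library in turn gave 4 to 8 in Control (8 without D2 Control replicate 5, 7 without D2 Susceptible replicate 2), 6 to 9 in Resilient, 13 to 22 in Susceptible and 17 to 20 in the average. For D2 Susceptible against Resilient, 0 as reported became 3 with DESeq2 and ranged from 0 to 4 when single libraries were left out (4 without D2 Susceptible replicate 3 or 5, 1 without replicate 4). Without D2 Susceptible replicate 3, 1 member (Kcna2) was called in D2 Susceptible against Control and 1 in the difference of the Susceptible against Resilient change between classes, each ranging from 0 to 1.

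Kcna2 in D2 Susceptible against Control reversed to -0.018 without D2 Susceptible replicates 1 and 2 and to -0.016 without 4 libraries. The causes were not tested. The following counts cover named members only in comparisons where they were called or among the 3 smallest p-values. Other alternatives kept direction and side of the threshold in 523 values, lost a call in 30, gained one in 3 and reversed 2. Leaving out single libraries did so in 1869, 43, 8 and 0. The call of Kcnd2 in Susceptible was lost in 21 of 30 such fits. No call of a Kv3 gene was lost in these 30 fits.

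Replicate numbers did not pair the libraries: same-numbered libraries had correlations of -0.324 to 0.227, with 9 of 75 over 0.1. With the number as a replicate block, 5 members were called in Control, 8 in Resilient, 16 in Susceptible, 18 in the average and 0 in each stress comparison.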
